A study of Drosophila melanogaster with 2 samples.

Results

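Single-exon noncoding RNA genes are transcription units that the genome annotation lists as noncoding RNA (ncRNA) and whose transcripts are each 1 unspliced exon. They were taken from the deposited transcript annotation as all genes of biotype ncRNA whose transcripts have 1 exon line each. The dosage compensation RNAs roX1 and roX2 and loci on the unplaced sequences U and Uextra were left out. The rule gave 329 genes of 19391 rows in the expression table, and of 779 ncRNA rows of any structure; 46 single-exon ncRNA genes on U or Uextra were set aside. For comparison, 402 ncRNA genes were spliced and 2156 protein-coding genes had 1 exon.

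The study sequenced 1 female and 1 male library of Drosophila melanogaster. Each pooled 200 ng of whole-body total RNA from each of 192 lines of the Drosophila Genetic Reference Panel (DGRP), inbred stocks founded from a natural population. Flies were adults aged 3 to 5 days, untreated and raised on cornmeal medium at a single temperature, and both pools were multiplexed as polyadenylated RNA in 1 lane of paired 100 nt reads. The libraries therefore differ in sex and share everything else that the labels name. A pool holds no value of a single line, and 1 library per sex leaves no replicate error, so every difference is a description of these 2 libraries with no test.

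Noncoding RNAs of this kind have several known roles. A few are components of old ribonucleoprotein machines, such as 7SL RNA, the scaffold of the signal recognition particle, and the RNA subunits of RNase P and RNase MRP, which process tRNA and rRNA precursors. Others are precursors of microRNAs, or antisense RNAs transcribed from the strand opposite a protein-coding gene. Most fly long noncoding RNAs (lncRNAs) have no assigned function, and adult testis is known as the tissue with the widest lncRNA transcription. Selection for poly(A) tails recovers polymerase II transcripts and depletes RNAs without a tail, 7SL among them.

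The 329 genes were short and spread over all arms. Model length had a median of 547 nt and ran up to 15466 nt. There were 112 on 2L, 80 on 3R, 71 on 2R, 41 on 3L, 19 on X, 5 on chromosome 4 and 1 on 2RHet, with 177 on the plus and 152 on the minus strand. In 320 genes the annotation gave a single transcript. By position in the same annotation, 142 lay between genes and 75 inside an intron of another gene, 45 of these on the strand opposite the host and 30 on the same strand. The exon of 67 overlapped an exon on the opposite strand (antisense overlap), and that of 45 overlapped an exon on the same strand. The 217 genes between genes or in introns are called clear of other exons below.

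Fewer of these genes reached an appreciable level in females than in males. Levels are given as FPKM, fragments per kilobase of model and per 1e+06 fragments, as the authors deposited them. At least 1 FPKM was reached by 54 genes in females and by 203 in males; 49 reached it in both, 5 in the female library alone and 154 in the male library alone. These are 16.4% of the genes in females and 61.7% in males, against 52.5% and 70.8% of all rows. The median of all 329 was 0.0310 FPKM in females and 1.98 FPKM in males, against 1.46 and 6.72 FPKM over all rows. Summed, the genes came to 1377 FPKM in the female library, 0.206% of its total, and 5461 FPKM in the male library, 0.574% of its total. CR34335 and CR40469 alone held 39.6% of the female sum and 57.8% of the male sum. For a model of median length, 1 FPKM stood for an estimated 36.9 fragments of female and 37.5 of male RNA, so depth was close in both.

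**Figure D1:**
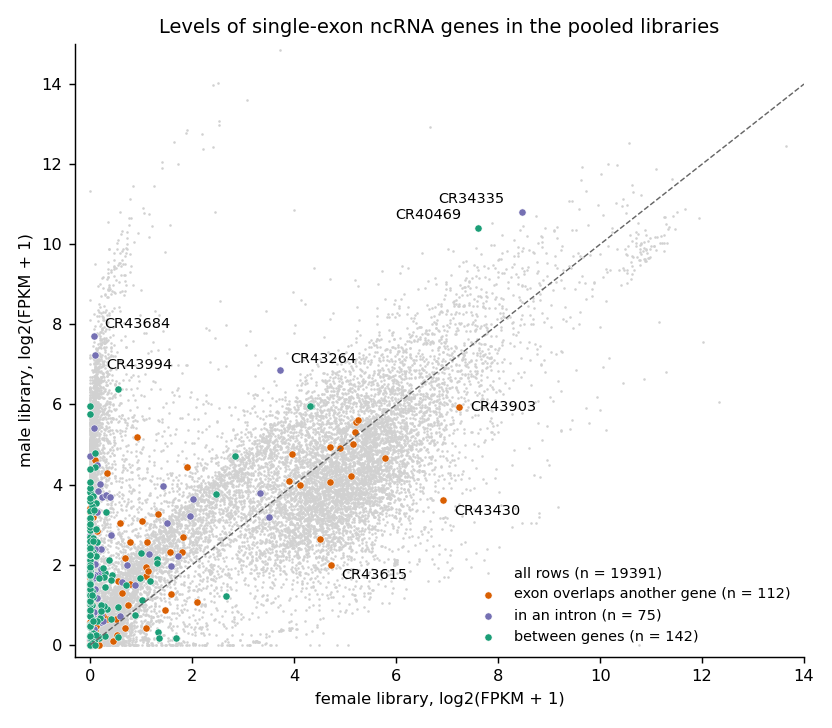
Level of each gene in the female library (x axis) and the male library (y axis), both as log2(FPKM + 1); small grey points are all 19391 rows, coloured points the 329 single-exon ncRNA genes by position, and the dashed line marks equal values. A column of genes stands at the left edge with male levels of up to 209.84 FPKM, while the genes near or below the line are mainly those whose exon overlaps another gene (orange).

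Differences are given as log2((female FPKM + 1)/(male FPKM + 1)), so a negative value means higher in males and changes of low genes are understated. Of the 208 genes with at least 1 FPKM in 1 library, 10 were at least 2-fold higher in females, 163 at least 2-fold higher in males, and 35 differed by less. These are 4.81% and 78.4% of the genes, against 21.5% higher in females and 40.7% higher in males over all 14108 rows past the same minimum. Most of the 208 passed the minimum through the male library alone, so the count favours male-higher genes. Where 1 FPKM was required in both libraries, 7 of 49 genes were higher in females and 16 higher in males, 32.7%, against 24.3% of all rows, and the median log2 ratio was −0.51. The median over the 208 was −1.73, with quartiles of −2.72 and −1.11, against −0.58 over all rows. Its size rests on the pseudocount, since with 0.1 FPKM the median of the genes was −4.08 and that of all rows −0.69.

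At 16-fold on the same scale, 14 of 208 genes were higher in males, 6.73%, against 11.3% of all rows, and 0 were higher in females. A gene below about 15 FPKM cannot reach this mark with a pseudocount of 1 FPKM. Among rows whose higher value was 20 to 100 FPKM, 38.5% of the genes and 17.4% of all rows were at least 16-fold higher in males. At 100 FPKM or more the shares were 28.6%, which is 2 of 7 genes, and 21.6%. Spliced ncRNA genes had higher shares in these 2 level classes, 42.5% and 55.6%. So did single-exon protein-coding genes, with 47.8% and 47.4%. The remaining 121 genes had less than 1 FPKM in both libraries and are not counted in any direction.

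Most genes were also male-higher under 2 other scalings of the libraries. When each library was scaled to the same sum, 12 of 202 genes were at least 2-fold higher in females and 148 higher in males. All rows then gave 4321 higher in females and 4421 higher in males, where the deposited values gave 3034 and 5743. When libraries were scaled to equal ribosomal protein gene levels, the genes gave 3 and 199 of 225, and all rows 1240 and 8380. These scalings shifted the median of all rows by 0.45 and −0.68.

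The markers of sex-specific tissues stood as the labels have it. Female germline genes summed to 6045 FPKM in females and 101 FPKM in males, with 5 of 6 at least 2-fold higher in females and grk, at 19.3 and 14.7 FPKM, the exception; the 3 yolk protein genes were all higher in females. All 6 testis and sperm genes were at least 2-fold higher in males, summing to 2.17 FPKM in females and 2809 FPKM in males, and so were all 4 accessory gland genes, at 2.31 and 4700 FPKM. Muscle genes (3 of 3, median −1.90) and nervous system genes (2 of 2, median −1.27) were also higher in males, the nervous system pair by less than 2-fold when libraries were scaled to the same sum. In whole bodies, fewer cells of a type and less RNA per cell cannot be told apart. Testis, accessory gland, muscle and nervous system markers moved in the same direction as most single-exon ncRNA genes, and their part in that result was not tested.

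Other gene classes showed the same direction, with a lower share at least 2-fold higher in males over all genes past the minimum. Among spliced ncRNA genes, 32 of 287 were at least 2-fold higher in females and 180 higher in males, 62.7%, with a median of −1.50. Single-exon protein-coding genes gave 351 and 972 of 1809, 53.7% higher in males, with a median of −1.23. These had a heavier extreme tail, since 29.7% of them were at least 16-fold higher in males. Restricting each class to genes clear of other exons left 89.6% of 154 single-exon ncRNA genes higher in males, 78.5% of 163 spliced ncRNA genes and 59.2% of 1420 single-exon protein-coding genes. Passage of the minimum through the male library alone fell in the same order, at 154 of 208, 180 of 287 and 803 of 1809. Clear of other exons it was 130 of 154, 129 of 163 and 703 of 1420. Such genes tend to count as male-higher, so nothing is concluded from the order of these shares. By size of the difference the order was not the same. Clear of other exons, the median was −1.85 for single-exon and −1.95 for spliced ncRNA genes. At least 16-fold higher in males were 7.79% of the single-exon and 14.1% of the spliced ones.

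The share was above that of all rows in each of 5 classes of level. The classes are set by the higher of the 2 values, so they do not remove the effect of the minimum. At 1 to 2 FPKM, 35 of 41 single-exon ncRNA genes reached 1 FPKM in males alone, against 916 of 1156 rows. At 2 to 5 FPKM, 61 of 75 did so, against 850 of 1609 rows. Among rows whose higher value was 1 to 2 FPKM, 29 of 41 single-exon ncRNA genes were at least 2-fold higher in males, against 444 of all 1156 rows. At 2 to 5 FPKM the counts were 62 of 75 against 891 of 1609, and at 5 to 20 FPKM 53 of 59 against 1588 of 3406. Between 20 and 100 FPKM they were 14 of 26 against 2018 of 6136, and at 100 FPKM or more 5 of 7 against 802 of 1801. The class from 20 to 100 FPKM had the lowest share, yet its 11 genes clear of other exons were all at least 2-fold higher in males. In that class 53.8% of single-exon ncRNA genes were higher in males, against 57.5% of spliced ncRNA genes and 58.2% of single-exon protein-coding genes.

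**Figure D2:**
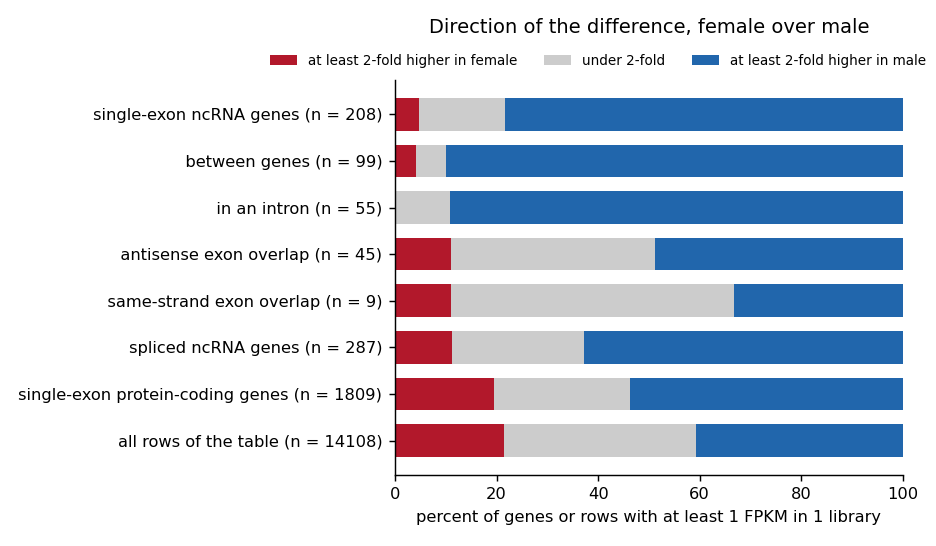
Percent of genes or rows with at least 1 FPKM in 1 library (x axis) with a female value at least 2-fold above the male one (red), a difference under 2-fold (grey) or a male value at least 2-fold above the female one (blue), with 1 library per sex. Single-exon ncRNA genes between genes were higher in males in 89 of 99 cases, in introns in 49 of 55 and with antisense overlap in 22 of 45. Of the 99, 55 and 45 genes, 86, 44 and 21 reached 1 FPKM in males alone, so the minimum favours male-higher calls.

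Genes clear of other exons were at least 2-fold higher in males in 138 of 154 cases, and genes with an overlap in 25 of 54. Of the 154, 130 passed the minimum through the male library alone, and of the 54, 24 did. By position the counts were 86 of 99 between genes, 44 of 55 in introns and 21 of 45 with antisense overlap. The minimum thus favours male-higher calls more among clear genes, and nothing is concluded from these shares by position. Between genes, 99 of 142 passed the minimum, of which 4 were at least 2-fold higher in females and 89 higher in males, with a median of −1.85. Inside introns, 55 of 75 passed, with 0 higher in females and 49 higher in males. Host strand made little difference, with medians of −1.92 on the strand opposite the host and −1.89 on the same strand. With antisense overlap, 45 of 67 passed, with 5 higher in females, 22 higher in males and a median of −0.99. The 9 of 45 that passed with same-strand overlap gave 1 and 3. Antisense genes also had the highest typical level in females, at a median of 0.416 FPKM, against 3.53 FPKM in males, whereas the median gene between genes was listed at 0 in females and had 2.04 FPKM in males.

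The 2 most abundant genes were short, X-linked and higher in males. CR34335 (FBgn0085364, 249 nt, X:3439895-3440143, minus strand) lies inside an intron of CG32791 and had 351 FPKM in females and 1794 FPKM in males, a log2 ratio of −2.35. Its host was near the floor, at 1.60 FPKM in females and 1.16 FPKM in males. CR40469 (FBgn0058469, 214 nt, X:18880-19093, plus strand), between genes at the tip of the X, had 193 FPKM in females and 1362 FPKM in males, a log2 ratio of −2.81. Both models are shorter than 300 nt, where FPKM depends most on how a program corrects for fragment length, and their fragment numbers were not estimated.

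The strongest differences were of genes nearly silent in females. CR43684 (FBgn0263767, 416 nt, 3L:15055307-15055722, minus strand), in an intron of Sytbeta, a synaptotagmin gene, had 0.0480 FPKM in females and 210 FPKM in males, the lowest ratio of all at −7.65. That is an estimated 1.30 fragments in females and 5746 in males. CR43994 (FBgn0264726, 353 nt, 3L:12020901-12021253, plus strand), opposite the strand of its host rols, a myoblast fusion gene, had 0.0698 and 150 FPKM in females and males, a ratio of −7.14. The hosts were higher in males to a smaller extent, Sytbeta at 0.959 FPKM in females and 3.53 FPKM in males, a ratio of −1.21, and rols at 3.77 FPKM in females and 6.16 FPKM in males, a ratio of −0.59. Both genes were near 0 in females and among the most abundant of the class in males.

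Several more genes shared this on-off pattern. CR43888 on 3L and CR43633 on 3R, both between genes, were listed at 0 in females and had 61.2 and 52.9 FPKM in males. CR43752, in an intron of the Tec-family kinase gene Btk29A and on the opposite strand, was listed at 0 in females and had 25.2 FPKM in males, whereas Btk29A itself had 72.5 FPKM in females and 15.96 FPKM in males. Host and intronic gene thus ran in opposite directions there. CR44051, in an intron of the chloride channel gene pHCl, had 0.0440 FPKM in females and 41.7 FPKM in males. CR43437, between genes on chromosome 4, had 0.0598 FPKM in females and 26.7 FPKM in males. CR43634 on 3R, next to CR43633, had 0.460 FPKM in females and 82.1 FPKM in males, a ratio of −5.83.

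The 14 genes at least 16-fold higher in males had models of 202 to 1047 nt, and 12 of them were clear of other exons. None exceeded 0.888 FPKM in females, and their male levels began at 15.7 FPKM with a median of 31.0 FPKM. CR43264 (318 nt, X:5725931-5726248, in an intron of CG15765, opposite strand), the fifth highest gene in males, was not among them, because it had 12.1 FPKM in females and 116 FPKM in males, a ratio of −3.15.

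Values of 0 in the female library were frequent. Of genes with at least 1 FPKM in males, 76 were listed at exactly 0 in females, with male values between 1.04 and 61.2 FPKM and a median of 3.05 FPKM. They are 36.5% of the 208 genes, against 5.77% of all rows past the minimum. The reverse was found for 0 genes, where only 5 reached 1 FPKM in females alone, against 64 rows of the whole table, 0.454% of those past the minimum. Zeros in females were also common among other low rows. Where the higher value was 1 to 2 FPKM, 23 of 41 single-exon ncRNA genes, 20 of 58 spliced ncRNA genes and 235 of all 1156 rows had them. Between genes lay 55 of the 76, in introns on the opposite strand 11, and antisense to an exon 5. In 10 of the 76 both flanking rows of the table were also at 0 in females. A value of 0 in a table without counts can be a failed estimate, so no fold is given for single genes of this kind. With a pseudocount of 1 FPKM all 76 count among the 163 male-higher genes, and 5 of them among the 14 at 16-fold.

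**Figure D3:**
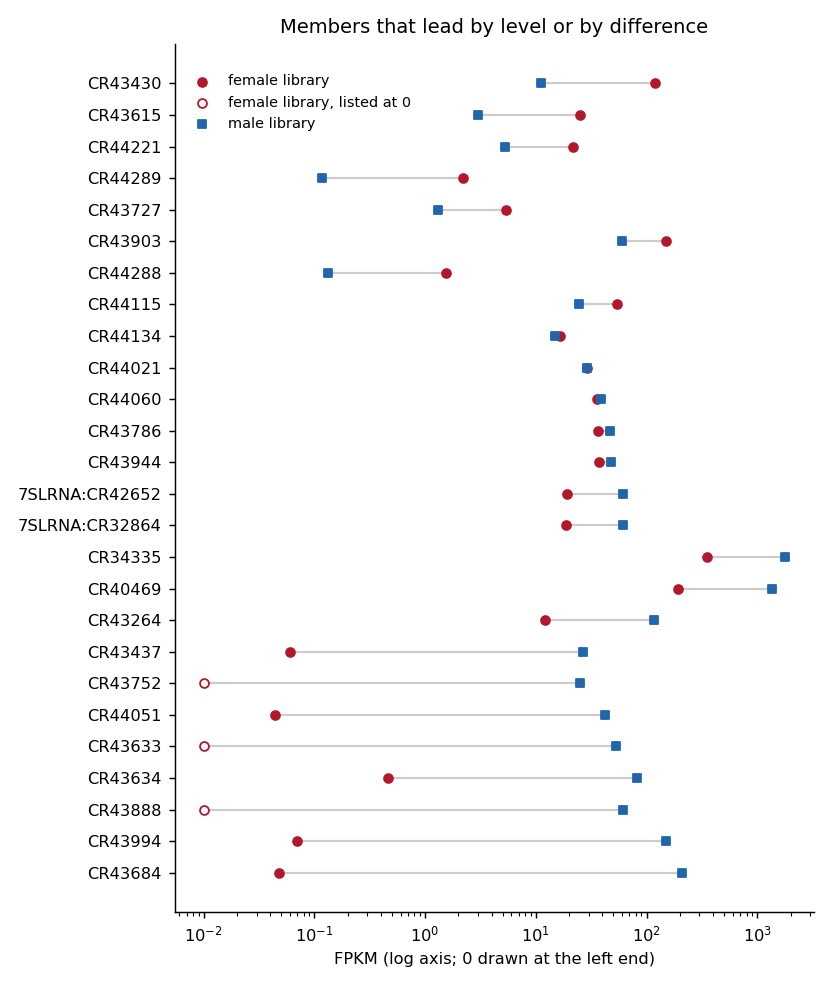
Female (red circle) and male (blue square) FPKM of the genes that lead by level or by ratio, on a log axis, ordered from the highest to the lowest log2 ratio of female over male; open circles at the left end are female values listed at 0. CR43430 leads at the top with 120 FPKM in females and 11.2 FPKM in males, and CR43684 ends the list at 0.0480 and 210 FPKM.

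Genes higher in females were few, and the highest of them were antisense to genes present in both libraries and higher in females as deposited. CR43430 (FBgn0263378, 1567 nt on 2R, plus strand) is covered over its whole length by hts, which encodes an adducin-like protein of the germline cytoskeleton. It had 120 FPKM in females and 11.2 FPKM in males, the highest ratio at 3.31, against 98.5 and 58.9 FPKM for hts. CR43615 (FBgn0263590, 814 nt, X:7766860-7767673, plus strand), overlapping the eggshell gene dec-1 over 39.7% of its length, had 25.3 FPKM in females and 3.00 FPKM in males. The ratio was 2.71, and dec-1 was at 119 FPKM in females and 6.43 FPKM in males. These 2 were the only genes at least 4-fold higher in females.

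CR44221 (552 nt, 2L:228037-228588), antisense to the chromatin remodeller gene kis, had 21.6 FPKM in females and 5.25 FPKM in males, with kis at 115.1 and 36.1 FPKM. CR43903 (683 nt, 3R:19519728-19520410) is overlapped over 97.5% of its length by CG10254 and had 150 FPKM in females and 60.3 FPKM in males, with CG10254 at 218 and 82.3 FPKM. CR44115 (676 nt, 2L:2236347-2237022), antisense to gho, which encodes a Sec24 coat protein of secretory vesicles, had 54.2 FPKM in females and 24.3 FPKM in males, with gho at 41.1 and 26.9 FPKM. In each of these pairs the ncRNA gene and the gene it overlaps were both higher in females as deposited. With ribosomal protein scaling the ratios of CR44221, CR43903 and CR44115 dropped under 2-fold, at 0.98, 0.34 and 0.18. How the authors' quantification treated strand is not given in the sources used here, and 2796 of 2827 unannotated single-exon loci in the annotation carry no strand. Without strand, reads of an antisense gene and of the exon it overlaps cannot be told apart.

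The other female-higher genes were low or lay apart from other exons. CR44289 (2073 nt) and CR44288 (927 nt), neighbours on 3R 329 nt apart on opposite strands, had 2.19 and 1.53 FPKM in females and 0.117 and 0.134 FPKM in males. They were the only adjacent pair higher in females. CR43727 (1131 nt on 3L) had 5.34 FPKM in females and 1.31 FPKM in males, and the BDGP6 annotation lists it as a pseudogene. CR43887 (1.52 FPKM in females, 0.242 FPKM in males) and CR43651 (3.24 and 1.10 FPKM) were singled out after their values were seen. With the pseudocount of 1 FPKM, which understates changes of low genes, they passed the 2-fold mark narrowly, with ratios of 1.02 each. With libraries scaled to ribosomal protein genes, CR43430, CR43615 and CR44289 were the 3 that kept at least a 2-fold female excess, with ratios of 2.38, 1.89 and 1.18.

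Some abundant antisense genes differed by less than 2-fold. CR44021, opposite the phosphatase catalytic subunit gene Pp1alpha-96A, had 28.7 FPKM in females and 28.9 FPKM in males. CR44060, opposite the Arf GTPase-activating protein gene drongo, had 35.8 FPKM in females and 38.5 FPKM in males, and CR44134, opposite CG9804, had 16.4 and 14.96 FPKM. CR43944, opposite the pantothenate kinase gene fbl, had 37.0 FPKM in females and 48.0 FPKM in males, and CR43786, opposite CG10082, had 36.2 and 46.3 FPKM. The sign of each of these 5 changed under 1 of the 2 scalings of the libraries, and with ribosomal protein scaling CR44060, CR43944 and CR43786 passed 2-fold in favour of males, at −1.05, −1.31 and −1.29. CR44134 stood out for its partner, since CG9804 had only 1.01 FPKM in females and 0.446 FPKM in males, although the ncRNA model lies entirely within its exons.

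Among antisense genes past the minimum, the share of the gene that was overlapped went with the size of the difference. Of 25 antisense genes overlapped over at least 80% of their length, 15 passed the minimum, and 2 were higher in females, 3 higher in males and 10 under 2-fold, with a median of −0.11. Of 42 overlapped over less, 30 passed, and 3 were higher in females, 19 higher in males and 8 under 2-fold, with a median of −1.67. The less overlapped genes thus came closer to those in introns and between genes. Of the 15, 2 passed the minimum through the male library alone, and of the 30, 19 did. The minimum thus favours a low ratio more among the less overlapped genes, and nothing is concluded from the medians. The part of shared reads in this contrast was not tested.

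**Figure D4:**
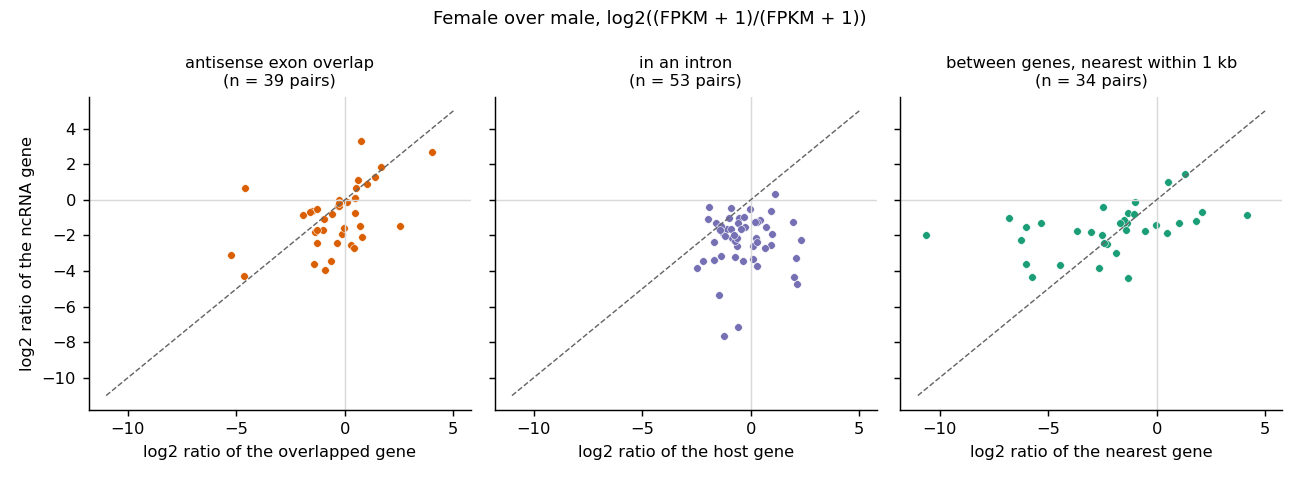
Log2 ratio of female over male for each single-exon ncRNA gene (y axis) against that of the protein-coding gene it overlaps, lies within or lies nearest to (x axis), for pairs with at least 1 FPKM in 1 library for both; the dashed line marks equal ratios. Intronic genes (53 pairs), most of which passed the minimum through the male library alone, lie below the line in 49 cases, whereas antisense genes (39 pairs) scatter around it.

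Pairing each gene with its protein-coding neighbour showed 3 patterns. Across 39 antisense pairs, the ratios of ncRNA gene and overlapped gene correlated with Pearson's r at 0.50 and Spearman's rho at 0.51, 21 pairs agreed within 1 log2 unit, and 20 shared the same 2-fold state. Across 53 pairs of intronic gene and host, r was 0.01 and rho 0.02. The intronic gene had the lower ratio in 49 of these, with medians of −1.96 for the ncRNA genes and −0.59 for the hosts. Intronic genes were at least 2-fold higher in males in 47 of the 53 pairs, and in 5 of the 6 whose host was at least 2-fold higher in females. Of the 55 intronic genes past the minimum, 44 reached 1 FPKM in males alone and 0 in females alone. The minimum thus favoured a low ratio of the intronic gene whatever its host, and nothing is concluded from these counts. Across 34 genes with a protein-coding gene within 1000 nt and no overlap, r was 0.43 and rho 0.53, and in 21 pairs both genes were at least 2-fold higher in males. All points share the same 2 libraries, and the pairs of 1 host or neighbour are not independent, so these correlations across genes are descriptions.

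In those 34 pairs the neighbour had the higher level in 34 of 34 cases in females and in 29 in males. Among intronic genes the host was higher in 50 of 53 cases in females and in 37 in males. The excess of the neighbouring gene was thus less uniform in males, which the minimum favours, since most of these ncRNA genes passed it through the male library alone.

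Single-exon ncRNA genes that lie next to each other were compared in pairs. There were 18 adjacent pairs within 1000 nt, and in the 9 where both passed the minimum, both genes had the same 2-fold state, 8 male-higher and 1 female-higher. Some genes stand in more than 1 pair, and 78.4% of all genes past the minimum were male-higher, so a shared state is common among these genes in general. On 3R, a run of 4 genes was nearly silent in females. There CR43631 had 0.0170 FPKM in females and 1.38 FPKM in males, CR43632 was listed at 0 and had 3.74 FPKM in males, and CR43633 and CR43634 followed with the values given above. A run of 3 on 2L, CR43713, CR43714 and CR43715, had 0, 0 and 0.0310 FPKM in females and 5.48, 1.97 and 12.0 FPKM in males. These runs were singled out after their values were seen, and adjacent models may be parts of 1 transcription unit.

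Level and direction differed between classes of length. None of the 34 genes under 100 nt, the read length, reached 1 FPKM. From 100 to under 300 nt, 19 of 28 genes passed the minimum and 17 of these were higher in males. Of these 28, 11 reached 1 FPKM in females, 39.3%, so level did not simply rise with length. From 300 to under 600 nt, 89 of 123 genes passed the minimum and 77 of these were higher in males; from 600 to under 1000 nt the counts were 64 of 87 and 53. From 1000 to under 2000 nt, 30 of 44 passed and 16 were higher in males. Of 13 genes of 2000 nt or more, 6 passed, 0 were higher in males and CR44289 was higher in females. This longest class holds few genes, most of them overlapping other exons.

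**Figure D5:**
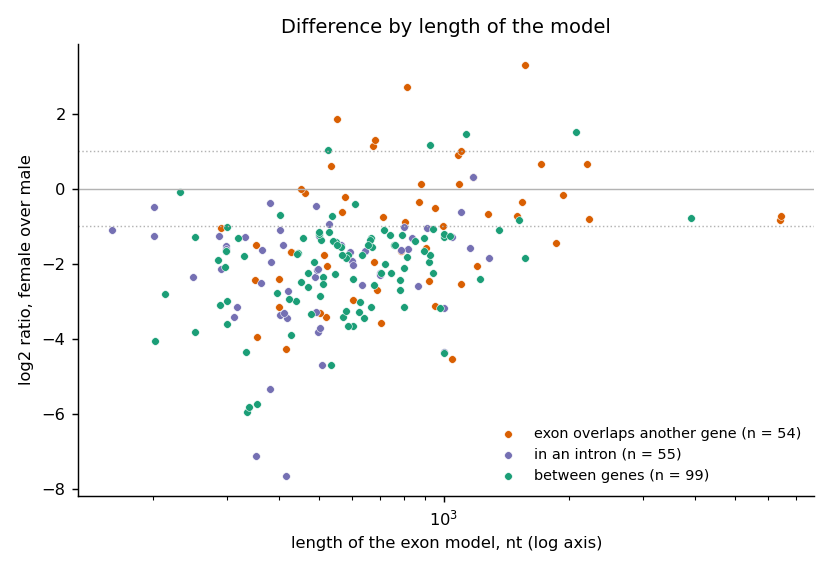
Log2 ratio of female over male (y axis) against the length of the exon model on a log axis, for the 208 genes with at least 1 FPKM in 1 library, coloured by position; dotted lines mark 2-fold. The ratios below −4 belong to models of 202 to 1047 nt, and the genes of 2000 nt or more stay within 2-fold except CR44289.

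The X and the autosomes gave similar shares. On the X, 14 of 19 genes passed and 12 were higher in males, with CR43615 the 1 higher in females, whereas over all X rows 682 of 2176 were higher in males. On the autosome arms, 149 of 190 were higher in males. On chromosome 4, 2 of 4 were higher in males.

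The genes of known ribonucleoproteins were present at low to moderate levels in this polyadenylated RNA. The 2 copies of 7SL, 7SLRNA:CR32864 and 7SLRNA:CR42652 on 3R, each 299 nt, had 18.8 and 19.0 FPKM in females and 61.8 FPKM each in males. Poly(A) selection depletes 7SL and both models are under 300 nt, so a ratio describes what was recovered, not 7SL abundance. Male values of the 2 copies were equal, and how reads that match both were assigned is not given in the sources used here. Only the sum of 37.8 FPKM in females and 124 FPKM in males is therefore read, a ratio of −1.69. CR44117 and CR44118, both 428 nt, likewise had equal values of 0.0244 FPKM in females and 2.29 FPKM in males. Of 7 genes listed by symbol for signal recognition particle proteins, 4 were at least 2-fold higher in females and 0 higher in males. Their median was 1.02, and 21.5% of all rows were higher in females. With libraries scaled to the same sum 4 of 7 were higher in females, with a median of 1.51, against 31.0% of all rows. Under ribosomal protein scaling 1 of 7 was higher in females, with a median of 0.09, against 8.46% of all rows. The highest ratio, 2.08, was that of Srp54, at 67.0 FPKM in females and 15.1 FPKM in males. Whether the symbol Srp54 names a protein of the particle was not checked, so these counts hold for the listed symbols only. Srp54k was nearly equal, at 65.1 FPKM in females and 63.9 FPKM in males, and Srp14 had 74.0 and 62.3 FPKM.

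RNaseP:RNA, the RNA of the enzyme that trims tRNA precursors, had 3.03 FPKM in females and 11.4 FPKM in males, a ratio of −1.62. Its model of 299 nt is also under 300 nt, and its fragment numbers were not estimated. It lies in an intron, on the same strand, of CG1746, an ATP synthase subunit c gene at 1774 FPKM in females and 2416 FPKM in males. RNaseMRP:RNA had 1.97 FPKM in females and 2.89 FPKM in males, under 2-fold, and its host CG10365 had 36.2 and 139 FPKM. The RNA exosome degrades many noncoding transcripts. Of its 10 measured subunit genes, 7 were at least 2-fold higher in females and 0 higher in males, against 21.5% of all rows higher in females. Their median was 1.46. With libraries scaled to the same sum 9 were higher in females and 0 in males, with a median of 1.92. Under ribosomal protein scaling 2 were higher in females and 1 in males. The exosome nuclease subunit Dis3 had 32.9 FPKM in females and 6.02 FPKM in males, whereas the nuclear nuclease Rrp6 had 21.9 and 39.4 FPKM.

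Other genes with names of their own were below 4 FPKM in both libraries except Yu. Yu on 2R was listed at 0 in females and had 11.7 FPKM in males. Eip63F-2, antisense to Eip63F-1 in an ecdysone-induced region, had 0.536 FPKM in females and 1.45 FPKM in males, with Eip63F-1 at 12.9 and 40.7 FPKM. MRE23 had 0.623 FPKM in females and 1.79 FPKM in males, and pncr015:3L 0.0814 and 3.64 FPKM. Of these named genes, only pncr014:3L was higher in females, at 1.12 FPKM in females and 0.334 FPKM in males. Its log2 ratio of 0.67 with a pseudocount of 1 FPKM was under 2-fold, and with 0.1 FPKM it was 1.49. CG6661, which overlaps pncr014:3L, had 2.14 FPKM in females and 75.0 FPKM in males. The small RNA unsRNA:d-a was listed at 0 in females and had 0.852 FPKM in males. The bithorax transcripts tre-1, tre-2 and tre-3 stayed at or under 0.0280 FPKM in both libraries.

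Small non-messenger RNA models made up most of the undetected genes. All 35 snmRNA models were 31 to 157 nt long, 33 of them under 100 nt, and 33 lie within an exon on the same strand. Of these 35, 34 were listed at 0 in both libraries, and 20 are copies of a 36 nt model inside the histone H2A genes of the repeated cluster on 2L. With 7 others they account for the 41 genes at 0 in both libraries. The table assigns them no reads of their own, which says nothing of whether they are transcribed.

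Hosts of microRNAs were low in both libraries, as singled out after their values were seen. CR43651, which contains mir-14, had the female excess given above. CR43459, with mir-277, had 1.18 FPKM in females and 2.60 FPKM in males, and CR43650, with mir-8, had 1.14 FPKM in females and 2.82 FPKM in males. CR43334, the 15466 nt precursor of ban, had 0.366 FPKM in females and 0.0739 FPKM in males, and CR43626, with mir-282, had 0.434 and 0.180 FPKM. The last 2 stayed below the minimum in both libraries.

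Later annotation left the class mostly intact. By identifier, 322 of the 329 genes were found in the BDGP6 annotation, 316 of them still as ncRNA, and 3 had more than 1 exon there. The names given there sort 225 as lncRNA, 50 as antisense RNA and 37 as small noncoding RNA, and all 50 antisense names fall in the class found here to overlap an exon on the opposite strand. CR43051, CR44198, CR43428 and CR43920 are listed as protein-coding there and CR43708 as a small nuclear RNA. CR44198 is among the genes at least 16-fold higher in males, with 0.888 FPKM in females and 35.4 FPKM in males, and CR43051 differed little, at 25.0 and 29.5 FPKM. CR34335, the most abundant gene, had no entry under its identifier.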

How the data were processed

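Gene levels were taken from 1 table of FPKM values that the authors deposited, with a column per library, together with the deposited transcript annotation. TopHat2 2.0.8, Cufflinks 2.0.2 and the genome build BDGP5 are named in the submitters' processing notes. Strand settings and read filters are not given in the sources used here. Coordinates are those of the deposited annotation, counted from 1. Values were used as deposited (Python 3.11.15; pandas 2.3.3; scipy 1.17.1; numpy 2.4.6; figures with matplotlib 3.10.9), with a pseudocount of 1 FPKM and a minimum of 1 FPKM in 1 library. The genes and lists were chosen with earlier results of these data known. Named genes are the 8 highest in each library, the 8 highest and 8 lowest ratios, the 3 flattest with 5 FPKM or more in both, and those not named CR and digits.

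Depth was estimated from the step between low values, at 0.0132 (female) and 0.0130 (male) FPKM times kilobases for each fragment. Only 55.6% and 50.7% of checked values lay within 0.15 of whole fragments, against 30% by chance, so no count test was run and fragment numbers are estimates. BDGP6 names and biotypes were matched by identifier, without coordinates. No sequences were used here. Alternatives tried were another pseudocount, minimum, fold and level, 2 scalings, and subsets by overlap and length.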

Additional observations from a re-analysis of the deposited data

How the results depend on the processing

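Of the recomputed counts and medians, 22 stayed close to the reported value and 16 moved. No median changed sign, and counts were judged by size only. Genes with at least 1 FPKM in females numbered 54 as reported, 24 among genes clear of other exons, 117 at a level of 0.1 FPKM and 187 at any value above 0. Female-higher genes, 10 as reported, numbered 6 at a minimum of 5 FPKM, 3 with libraries scaled to ribosomal protein genes, 2 at 4-fold and 4 among genes clear of other exons. Male-higher genes, 163 as reported, numbered 72 at a minimum of 5 FPKM, 16 with at least 1 FPKM required in both libraries and 87 at 4-fold. The median log2 ratio, −1.73 as reported, was −4.08 with a pseudocount of 0.1 FPKM, −2.98 at a minimum of 5 FPKM, −0.99 with no minimum, −0.51 with 1 FPKM required in both libraries, −1.56 with equal sums and −2.13 with equal ribosomal protein levels. A higher minimum or a double requirement leaves fewer genes; otherwise the cause was not tested. With the double requirement, 49 genes remained, of which 7 were higher in females. Under equal sums CR44060, CR43786, CR43944 and CR44021 turned positive (0.39, 0.15, 0.13 and 0.48), and under ribosomal scaling CR44134 turned negative (−0.79). With 1 library per sex no replicate could be left out, and most female values of these genes rest on few fragments. No paired analysis was possible because each sex has 1 library.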
